A study of Mus musculus with 6 samples.

Results

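The genes described here make and break down glycogen, the branched glucose polymer that cells keep as a short-term store. The 9 genes were chosen by symbol, as enzymes and a regulator of the pathway, and not by a threshold on their measured values: Gys1, Gyg, Gbe1, Ugp2, Pgm2, Pygb, Pygl, Pygm and Ppp1r3c. All 9 had at least 1 probe whose platform annotation gave that symbol alone, and Gyg and Pygl had 2 each, so that 11 of 36227 probes were read, all of which could be tested. Each probe was measured on 6 single-colour CodeLink whole genome arrays of adipocytes made from 3T3-L1, mouse fibroblast-like cells that store lipid after an adipogenic mixture. Controls were adipocytes that carried the Tet-off plasmid alone (3 arrays), and the other group was adipocytes made to express uncoupling protein 1, UCP1, the mitochondrial carrier that lets protons re-enter without ATP synthesis (3 arrays). Both groups were harvested 10 days after differentiation. The promoter of the UCP1 construct, whether the UCP1 cells also carried the Tet-off plasmid, and whether either group was a clone or a pool are not stated in the labels. Nor do the labels tell whether the arrays of a group stand for separate cultures. The p-values therefore speak of array-to-array spread, part or all of which may be technical.

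In glycogen synthesis, phosphoglucomutase turns glucose 6-phosphate into glucose 1-phosphate, the pyrophosphorylase Ugp2 turns that into UDP-glucose, glycogenin (Gyg) builds a primer on itself, glycogen synthase lengthens the chains and the branching enzyme Gbe1 adds branch points. Breakdown runs through glycogen phosphorylase, which exists as brain (Pygb), liver (Pygl) and muscle (Pygm) isozymes. Targeting subunits such as Ppp1r3c hold protein phosphatase 1 on the glycogen particle, where it activates synthase and inactivates phosphorylase. Adipocytes keep a small glycogen store beside their lipid, and insulin promotes its synthesis there.

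Ucp1 itself, the forced gene, read 0.222, 0.232 and 0.278 in controls and 2.34, 2.02 and 1.54 in UCP1 cells, and was 3.00 ± 0.234 (SE) higher in log2 units (limma, adjusted p = 0.00013). Array medians lay between 1.04 and 1.05, while the 99th percentile of intensity was 255 to 279 on control arrays and 185 to 225 on UCP1 arrays. Of 6 adipocyte markers none passed, with a summed intensity of 2849 to 3262 in controls and 2278 to 3215 in UCP1 cells. All 6 differences were below 0, where 60.1% of all genes on their brightest probe were. Cebpa was at -0.69 in log2 units with overlapping groups (limma, adjusted p = 0.167), and the others lay between -0.21 and -0.05. With group means of 4.85 and 2.99, Cebpa adds little to the sum. Of 7 preadipocyte and fibroblast markers 3 rose (Pdgfra, Thy1 and Lum) and 0 fell, with a summed intensity of 134 to 164 in controls and 174 to 217 in UCP1 cells. Those that did not pass differed in sign, with Dlk1 at 0.335, Pdgfrb at 0.52, Col1a1 at -0.21 and Cd34 at -0.29 in log2 units. Of all genes read on their brightest probe, as the markers were, 1.13% were called higher and 2.92% lower. None of 5 brain and astrocyte markers passed, and of 3 macrophage markers Lyz2 rose while Adgre1 and Ptprc read at most 0.334 and 0.179 (summed intensity 0.9748 to 1.78 in controls and 2.73 to 4.12 in UCP1 cells). The part of these marker levels in the results for glycogen genes was not tested.

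The branching enzyme, the muscle-type synthase and a phosphatase targeting subunit were lower in UCP1 cells. Gbe1 fell 2.85-fold, Gys1 fell 1.86-fold and Ppp1r3c fell 2.62-fold, and none of the 11 probes was called higher. Of the 11 probes, 3 passed the threshold (limma, Benjamini-Hochberg adjusted p under 0.05 over all probes), all 3 lower in UCP1, while 2.03% of all 36116 tested probes were called lower and 0.800% higher. The median difference over the 11 probes was -0.54 on the log2 scale, against -0.06 over all probes tested. Over the 18058 brighter probes, which included 7 of the 11, the median difference was -0.09. After quantile normalization the median difference was -0.35 over the 11 probes and 0.018 over all probes. In 5 of the 11 probes the 3 UCP1 arrays lay wholly below the 3 controls and in 0 wholly above, where 14.0% of all probes lay wholly below and 7.89% wholly above. In bulk RNA, fewer cells with a transcript and less of it per cell cannot be told apart.

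**Figure D1:**
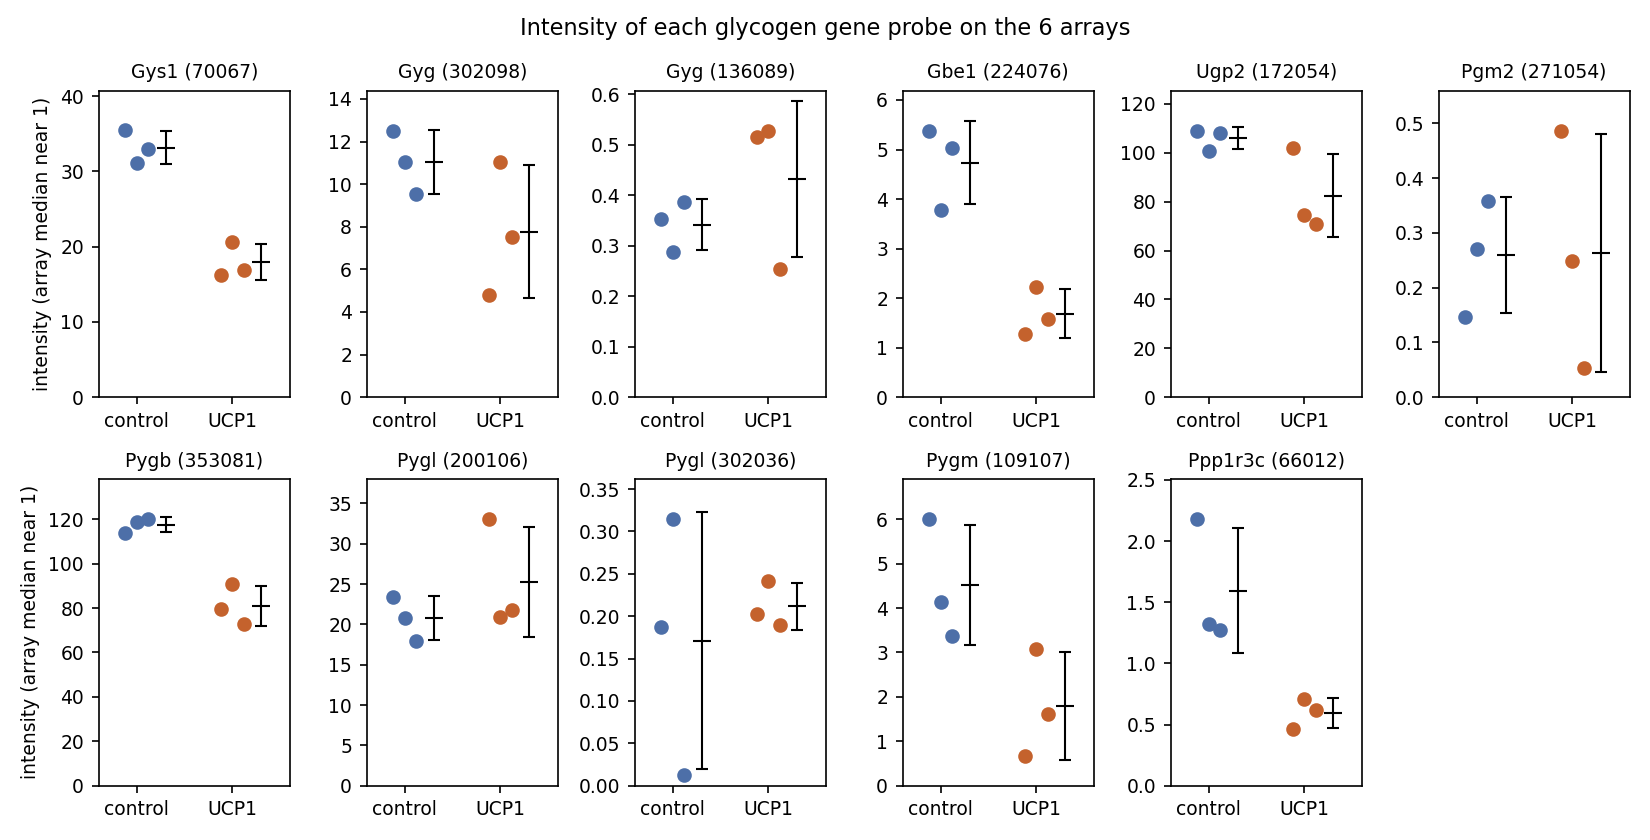
Intensity of each of the 11 probes on the 6 arrays, on linear axes that start at 0 and differ between panels; points are arrays, and the bar beside them is the mean with the SD of 3 arrays. The UCP1 arrays lie below all controls for Gys1, Gbe1, Pygb, Pygm and Ppp1r3c, while the groups overlap for Ugp2, Pgm2 and both probes of Gyg and of Pygl.

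Gbe1, the branching enzyme, had the smallest p among the members. On the control arrays its probe (feature 224076) read 5.38, 3.78 and 5.02, against 1.27, 2.22 and 1.57 with UCP1, in units in which each array's median probe is close to 1. Every UCP1 reading was below every control reading, and the probe went from above 70.5% to 74.0% of the probes of an array to above 53.6% to 63.8%. Group means were 4.73 ± 0.839 (SD, n = 3) and 1.69 ± 0.487 (SD, n = 3), a difference of -1.51 ± 0.203 (SE) in log2 units (limma, adjusted p = 0.00345).

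Gys1, the synthase isoform of muscle and most other tissues, also fell. Controls read 35.4, 31.1 and 32.9 (feature 70067) and UCP1 arrays 16.3, 20.6 and 16.8. The groups did not overlap, and the arrays of each lay close together. The difference was -0.89 ± 0.126 (SE) on the log2 scale, with a 95% interval from -1.17 to -0.62 (limma, adjusted p = 0.00445).

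Ppp1r3c, also known as protein targeting to glycogen, was read near the array median in controls. Its probe (feature 66012) read 2.18, 1.32 and 1.28 in controls and 0.467, 0.709 and 0.617 in UCP1 cells. Control 1 stood above the other two controls, and all UCP1 readings were below the array median. It fell by 1.39 ± 0.247 (SE) in log2 units (limma, adjusted p = 0.014), and the call was lost without control 1 (-1.14, adjusted p = 0.056) and without UCP1 array 3 (-1.43, adjusted p = 0.0878).

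All 3 calls were lost when limma's variance model ignored intensity: then 0 of 36116 probes passed, 4951 had an unadjusted p under 0.05, and Gys1, Gbe1 and Ppp1r3c had adjusted p = 0.209, 0.213 and 0.227. Among the 18058 brighter probes alone, Gys1 and Gbe1 passed without the trend too. After quantile normalization, which changed the balance over all probes from 732 lower and 289 higher calls to 446 lower and 567 higher, the same 3 members passed, with Gys1 at -0.75, Gbe1 at -1.45 and Ppp1r3c at -1.40.

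The promoters of the 3 genes that fell are shown because they fell together, as the 250 bases before the start site, 5′ to 3′ in the direction of the gene, from RefSeq on GRCm38.p6. Of the 9 genes, all matched a RefSeq promoter, Ugp2 with 2 and the others with 1. Capitals mark matches on either strand to ACGTG or GCGTG, the core letters that hypoxia-inducible factors bind, to CACGTG, an E-box that contains ACGTG, and to GGGCGG, the GC box bound by Sp1. Gys1 lies at chr7:45434589-45434838 on the plus strand, Gbe1 at chr16:70313699-70313948 on the plus strand and Ppp1r3c at chr19:36736605-36736854 on the minus strand.
Gys1: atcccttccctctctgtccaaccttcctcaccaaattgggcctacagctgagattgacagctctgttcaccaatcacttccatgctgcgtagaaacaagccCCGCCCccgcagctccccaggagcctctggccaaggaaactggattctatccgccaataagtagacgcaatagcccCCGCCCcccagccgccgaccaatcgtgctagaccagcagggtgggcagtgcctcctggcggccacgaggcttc
Gbe1: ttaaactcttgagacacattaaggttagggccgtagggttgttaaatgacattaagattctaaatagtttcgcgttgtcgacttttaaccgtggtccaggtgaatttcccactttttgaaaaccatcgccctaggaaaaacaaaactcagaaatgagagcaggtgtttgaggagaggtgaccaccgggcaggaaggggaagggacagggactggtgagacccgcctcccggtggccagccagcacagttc
Ppp1r3c: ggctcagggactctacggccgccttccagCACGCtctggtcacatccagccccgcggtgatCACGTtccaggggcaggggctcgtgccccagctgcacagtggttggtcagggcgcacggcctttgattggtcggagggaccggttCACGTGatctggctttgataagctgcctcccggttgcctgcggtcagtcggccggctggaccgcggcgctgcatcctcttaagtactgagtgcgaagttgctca

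The 3 windows had little in common. That of Ppp1r3c held 3 matches to ACGTG, 2 of them the opposite strands of a CACGTG that starts 104 bases before the start site, and 1 to GCGTG. In the Gys1 window only GGGCGG was found, starting 149 and 73 bases before the start site, and in that of Gbe1 none of the 4. Among all 32851 promoters of the same length, 16.6% held ACGTG, 28.2% GCGTG, 6.0% CACGTG and 32.7% GGGCGG. Of the 9 members, 6 had ACGTG in a promoter, among them Pygb, Pygl, Pygm, Ugp2 and Pgm2, none of which passed the threshold. GC content was 60.0% for Gys1, 48.8% for Gbe1 and 64.4% for Ppp1r3c, against a median of 52.4% over all promoters. A match describes the letters only.

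Of the remaining synthesis genes (Ugp2, Gyg and Pgm2) none passed. Ugp2, which supplies UDP-glucose, read 109, 101 and 108 in controls and 102, 74.5 and 71.0 in UCP1 cells (feature 172054). UCP1 array 1 fell inside the control range and the other two lay below it. The log2 difference was -0.38 ± 0.162 (SE), with an interval from -0.73 to -0.03 (limma, adjusted p = 0.253), and it shrank to -0.13 after quantile normalization. Without UCP1 array 1 it was -0.54 and passed (adjusted p = 0.0243).

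Gyg, the glycogenin primer protein, had a bright and a dim probe. The bright one (feature 302098) read 12.5, 11.04 and 9.56 in controls and 4.78, 11.04 and 7.51 in UCP1 cells, a difference of -0.58 ± 0.237 (SE) in log2 units (limma, adjusted p = 0.232). UCP1 array 2 lay at the level of control 2 and the other UCP1 arrays were below all controls, and without that array the difference was -0.87 and passed (adjusted p = 0.0145). Without UCP1 array 1 it was -0.27 (adjusted p = 0.414). The dim probe (feature 136089) read 0.352, 0.286 and 0.386 in controls and 0.515, 0.528 and 0.255 in UCP1 cells, and went the other way, at 0.28 ± 0.365 (SE). The probes thus differed in sign, and the groups overlapped on both.

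Pgm2 needs a remark on names, because older mouse nomenclature used this symbol for the gene now called Pgm1. The annotation used here gives Pgm2 to NCBI gene 66681, whose product acts mainly on pentose phosphates, and Pgm1 to NCBI gene 72157, the main phosphoglucomutase of glycogen metabolism. The Pgm2 probe (feature 271054) was dim, at 0.147, 0.271 and 0.358 in controls and 0.487, 0.248 and 0.0537 in UCP1 cells. Those readings lay above only 1.35% to 35.7% of the probes of an array, and the difference of -0.38 ± 0.749 (SE) turned to 0.52 without UCP1 array 3. No direction can be read from it.

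Pgm1 was bright, and its main probe (feature 260049) read 74.5, 70.6 and 74.6 in controls and 63.3, 54.6 and 48.9 in UCP1 cells. The groups did not overlap, but the difference of -0.41 ± 0.136 (SE) on the log2 scale did not pass (limma, adjusted p = 0.139) and was -0.20 after quantile normalization. Without UCP1 array 1 it was -0.50 and passed (adjusted p = 0.0285). Its other probe (feature 1061) was at -0.23 ± 0.168 (SE) with overlapping groups.

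None of the 4 probes of the phosphorylases, which release glucose 1-phosphate from glycogen, passed. Pygb, the brain isozyme, read 114, 119 and 120 in controls and 79.4, 90.8 and 72.9 in UCP1 cells (feature 353081). The controls lay close together and all UCP1 arrays were lower, at a difference of -0.54 ± 0.141 (SE) in log2 units (limma, adjusted p = 0.0645). It passed with array weights (adjusted p = 0.0285), robust eBayes (0.0471), the brighter probes alone (0.028, and 0.0215 without the trend), without UCP1 array 1 (0.0426) and without UCP1 array 2 (0.0368). After quantile normalization it was -0.28 (adjusted p = 0.253). The 5 brain and astrocyte markers summed to 5.38 to 5.79 on control arrays and 6.63 to 7.13 on UCP1 arrays.

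Pygm, the muscle isozyme whose loss causes McArdle disease, had a difference about as large as that of Gbe1 but a wider spread. Its probe (feature 109107) read 6.004, 4.15 and 3.37 in controls and 0.660, 3.08 and 1.62 in UCP1 cells. UCP1 array 2 came close to control 3, while UCP1 array 1 was far lower. The difference was -1.56 ± 0.420 (SE), with an interval from -2.47 to -0.64 (limma, adjusted p = 0.0726). It was -2.08 and passed without UCP1 array 2 (adjusted p = 0.00339), and was -0.97 without UCP1 array 1 (adjusted p = 0.0887). Markers of skeletal muscle were mostly dim in the same RNA, with 7 of 9 below the median probe. Their summed intensity was 5.004 to 6.53 on control arrays and 6.40 to 7.66 on UCP1 arrays. Of the 9, 1 was called higher and 0 lower, where 1.13% of all genes were called higher and 2.92% lower. The called marker was Actn3, with means of 0.904 in controls and 1.81 in UCP1 cells (limma, adjusted p = 0.0195). The brightest, Tnni2, had means of 2.80 and 2.94, and the dimmest, the muscle creatine kinase Ckm, read at most 0.303.

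Pygl, the liver isozyme, was the only phosphorylase whose bright probe had a positive difference. This probe (feature 200106) read 23.4, 20.8 and 17.95 in controls and 33.1, 20.9 and 21.8 in UCP1 cells. UCP1 array 1 was above all controls, whereas arrays 2 and 3 lay inside their range. The difference was 0.26 ± 0.173 (SE), with an interval from -0.12 to 0.64 (limma, adjusted p = 0.498), and 0.05 without UCP1 array 1. The second Pygl probe (feature 302036) was near the bottom of the scale, from 0.012 to 0.315 over the 6 arrays, and its difference of 1.24 ± 1.096 (SE) turned to -0.21 without control 3.

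**Figure D2:**
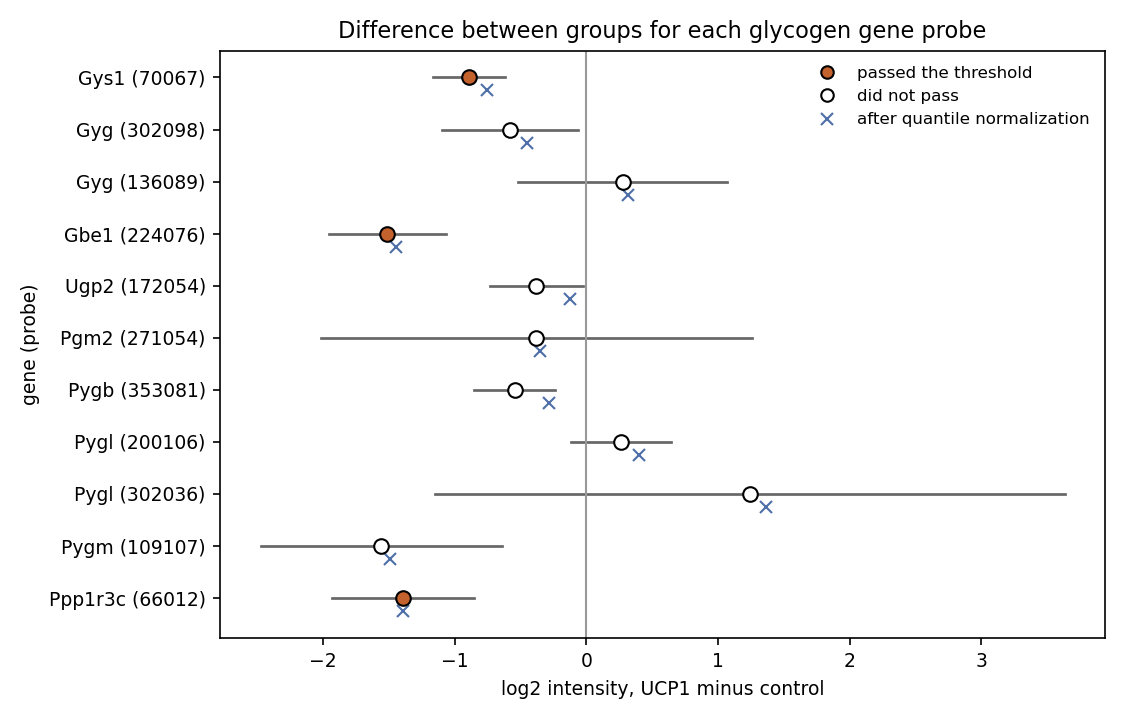
Log2 difference, UCP1 minus control, for each of the 11 probes (points) with its 95% interval from limma (lines) and the value after quantile normalization (crosses). Filled points passed the threshold: Gys1 at -0.89, Gbe1 at -1.51 and Ppp1r3c at -1.39; the bright probe of Pygl, at 0.26, lies to the right of 0.

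Ratios of 2 members on the same array do not change with any factor that scales a whole array, though they can change with scaling that depends on intensity. The 4 ratios were chosen after the values were seen, and with 3 against 3 arrays the exact two-sided permutation test over arrays cannot give a p below 0.1, which all 4 reached (adjusted p = 0.1). The ratio of Gys1, which builds chains, to Pygb, which shortens them, differed by -0.35 ± 0.0917 (SE) in log2 units and was lower on every UCP1 array than on any control array. For Gbe1 over Gys1 the difference was -0.62 ± 0.172 (SE), again with all UCP1 arrays below. Pygl over Pygb differed by 0.81 ± 0.281 (SE) and Pygl over Gys1 by 1.16 ± 0.310 (SE), with all UCP1 arrays above the controls. The 4 ratios share genes and are not separate results. On each array, Pygl over Gys1 follows from Pygl over Pygb and Gys1 over Pygb.

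**Figure D3:**
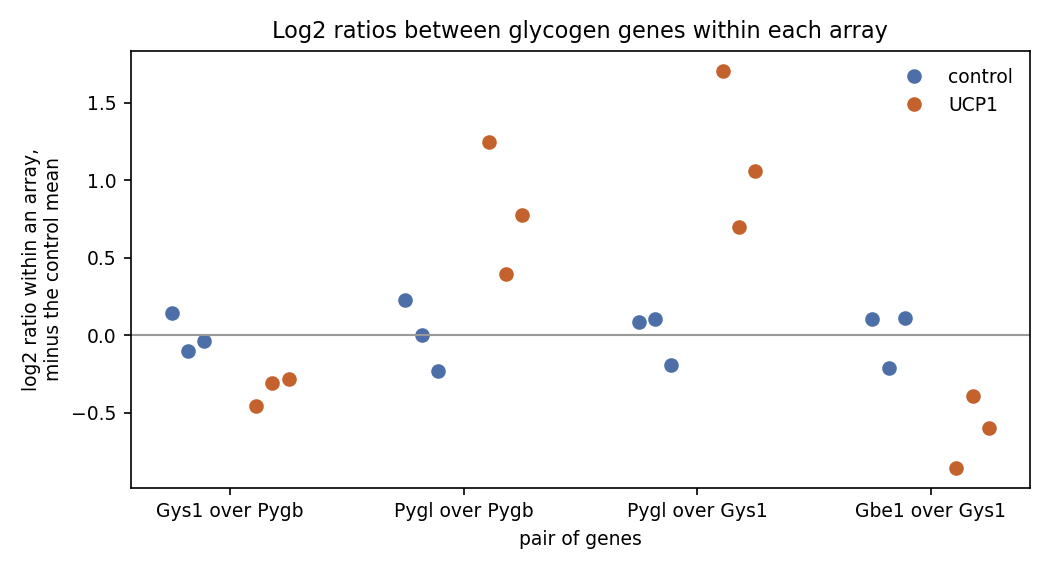
Log2 ratio of 2 glycogen genes within each array, shifted so that the mean of the 3 control arrays is 0; points are arrays. In all 4 pairs the UCP1 arrays lie on one side of the controls, with changes of -0.35 for Gys1 over Pygb, 0.81 for Pygl over Pygb, 1.16 for Pygl over Gys1 and -0.62 for Gbe1 over Gys1. The pairs were chosen after the values were seen and share genes, and Pygl over Gys1 is fixed by the pairs that hold Pygb.

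UCP1 array 2 read highest of the 3 UCP1 arrays for all 5 probes without overlap (Gys1, Gbe1, Pygb, Pygm and Ppp1r3c), and so lay nearest to the controls. Over 18032 brighter probes with a value on every array, its log2 values also correlated with the controls at r = 0.987 to 0.988, against 0.976 to 0.984 for UCP1 array 1 and 0.981 to 0.987 for UCP1 array 3. Its part in the members' values was measured by leaving it out, when 6 member probes passed in place of 3 and the share of all probes called lower went from 2.03% to 4.15%. Without UCP1 array 1, 5 member probes passed and 4.46% of all probes were called lower, so the counts rose over the whole array and not for these genes alone.

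The probes most like Gbe1 across the 6 arrays, by Pearson correlation of log2 values among 12049 named probes at or above the median level, were those of the cohesin subunit Rad21 (r = 0.9992), the glutathione-degrading enzyme Chac1 (r = 0.997) and the tRNA methyltransferase subunit Trmt6 (r = 0.9957). With 6 arrays in 2 groups such values are a description, and 12 probes had r above 0.99. Chac1 went from 3.31 ± 0.514 to 1.48 ± 0.390 (SD, n = 3) (limma, adjusted p = 0.00947), and Rad21 had means of 14.0 ± 0.849 and 10.4 ± 0.901 (SD, n = 3; adjusted p = 0.065).

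Beyond the 9 members, 30 of 38 other listed genes of glycogen metabolism had a probe, each read on its brightest one; the other 8 were not analysed here. Of the 30, 3 fell (Ppp1r3b, Ppp1r3f and Slc37a4) and 1 rose (Gys2), where 2.92% of all 18014 genes read this way were called lower and 1.13% higher. Their median difference was -0.29 on the log2 scale, against -0.08 over all genes, with 23 of 30 below 0. Differences below 0 were also found for 60.1% of all genes read this way and for 64.5% of the 18058 brighter probes. In 14 of the 30 the UCP1 arrays lay wholly below the controls and in 3 wholly above, where 17.1% of all genes lay below and 8.09% above. Without the intensity trend all 4 calls were lost.

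Gys2, the synthase isoform typical of liver, rose while Gys1 fell. Its probe (feature 383003) read 3.98, 3.77 and 4.84 in controls and 8.95, 6.20 and 6.35 in UCP1 cells. All UCP1 readings were higher, by 0.76 ± 0.159 (SE) in log2 units (limma, adjusted p = 0.0285). The call was lost without control 1 (adjusted p = 0.102), control 2 (0.0984) or UCP1 array 3 (0.113). Liver markers were dim, with 5 of 5 below the median probe and a summed intensity of 1.42 to 1.71 in controls and 1.37 to 1.92 in UCP1 cells.

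Among the 7 targeting subunits of protein phosphatase 1, counting the member Ppp1r3c again, 3 were called lower and none higher. Of all genes, 2.92% were called lower and 1.13% higher. Ppp1r3b, abundant in liver and also known as GL, read 42.0, 33.1 and 43.0 in controls and 27.6, 13.6 and 18.1 in UCP1 cells (feature 324055), and fell by 1.04 ± 0.214 (SE) in log2 units (limma, adjusted p = 0.0266). That call was lost without control 1 (adjusted p = 0.0934), control 3 (0.0662) or UCP1 array 3 (0.155). Ppp1r3f read 17.5, 12.7 and 18.2 in controls and 7.59, 6.20 and 8.35 in UCP1 cells (feature 322005), and fell by 1.12 ± 0.158 (SE) (limma, adjusted p = 0.00459). For both genes the groups were apart. The other 4 did not pass: Ppp1r3d was at -0.14 (0.05 after quantile normalization), and Ppp1r3a, Ppp1r3e and Ppp1r3g were at 0.17, 0.21 and 0.44, of which Ppp1r3e and Ppp1r3g were dim. The catalytic subunits Ppp1ca and Ppp1cb were both at -0.21 without passing (Ppp1ca 0.04 with cyclic loess).

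None of the 6 measured kinase genes of the pathway passed. Phosphorylase kinase switches phosphorylase on. On their brightest probes its 3 measured subunits all read lower on every UCP1 array than on any control, without passing. Of all genes read this way, 17.1% lay wholly below. A dimmer Phka1 probe (feature 331024) was at 0.01 ± 0.476 (SE), with overlapping groups. Phkg2 had the smallest p, at -0.43 ± 0.124 (SE) in log2 units (limma, adjusted p = 0.0879), beside Phka1 at -0.32 and Phkg1 at -0.30, and it passed among the brighter probes alone (adjusted p = 0.039). After quantile normalization Phkg2 was at -0.34 (limma, adjusted p = 0.173), Phka1 at -0.19 and Phkg1 at -0.15. Of 3 kinases that phosphorylate glycogen synthase, Csnk2a1 was at -0.54 ± 0.149 (SE) (limma, adjusted p = 0.0791), with Gsk3a at -0.22 and Dyrk1a at -0.26. Csnk2a1 passed with array weights (adjusted p = 0.0288), among the brighter probes alone (0.0285, and 0.041 without the trend) and without UCP1 array 1 (0.0144). It did not pass after quantile normalization (-0.46, adjusted p = 0.107) or when any 1 control was left out (adjusted p = 0.158 to 0.213).

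Slc37a4, which carries glucose 6-phosphate into the endoplasmic reticulum, was the 1 of 5 genes of glucose 6-phosphate supply and release that passed. Its probe (feature 195100) read 8.83, 8.74 and 8.29 in controls and 5.18, 4.94 and 5.20 in UCP1 cells. Both groups were tight and did not overlap, and the gene fell by 0.76 ± 0.106 (SE) in log2 units (limma, adjusted p = 0.0044). In the 2 remaining groups none passed. Stbd1, which tethers glycogen to membranes, had the smallest p of 4 genes of lysosomal breakdown and quality control, at -0.73 ± 0.282 (SE). Control 3 read 7.07 and the other controls 2.73 and 3.09, and without control 3 the difference was -0.31 (adjusted p = 0.445). Galt, the uridylyltransferase of galactose metabolism, had the smaller p of 2 users of UDP-glucose, at -0.36 ± 0.121 (SE).

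**Figure D4:**
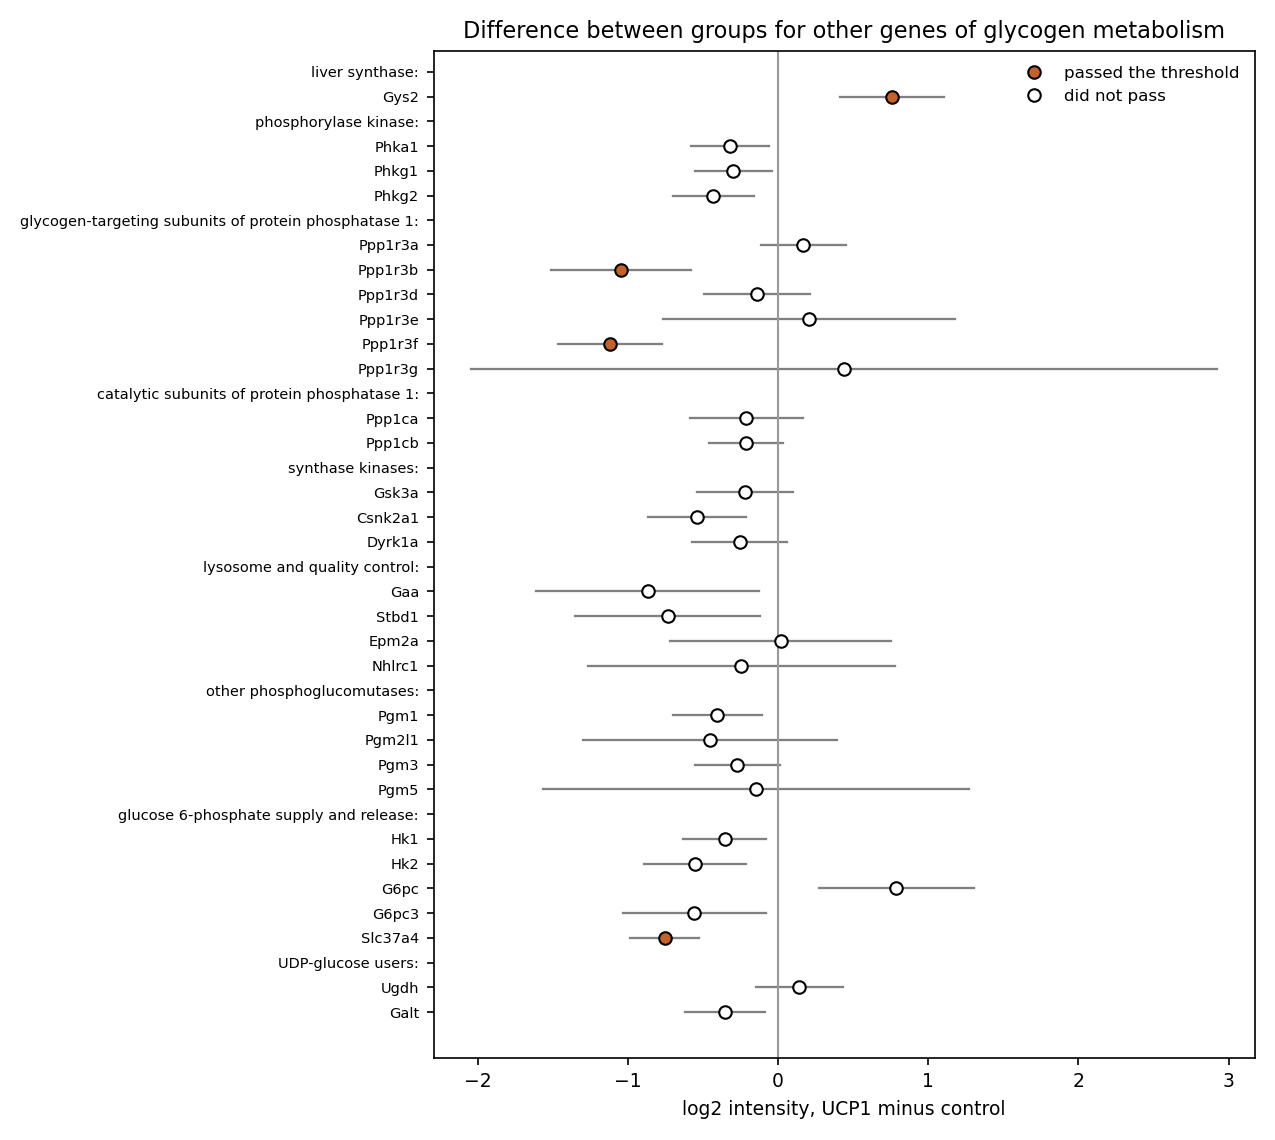
Log2 difference, UCP1 minus control, for 30 other genes of glycogen metabolism in 9 groups, each on its brightest probe, with the 95% interval from limma. Filled points passed the threshold: Gys2 at 0.76 to the right of 0, and Ppp1r3b at -1.04, Ppp1r3f at -1.12 and Slc37a4 at -0.76 to the left.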

How the data were processed

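Values were spot intensities of 1-colour CodeLink arrays (biotin-labelled total RNA, per the labels), deposited on a linear scale. Their background correction and scaling: not given in the sources used here. Array medians of the deposited intensities were nearly equal. The code -9999 stood for a missing value (116 to 125 probes per array). Intensities at or below 0 (80 to 159 per array) were set to the array's smallest positive value before log2. Probes with at least 2 values per group were tested (36116 of 36227). The fit used limma 3.58.1 under R 4.3.3 (lmFit, eBayes with an intensity trend, two-sided, Benjamini-Hochberg over all tested probes, threshold 0.05), a step tested on simulated data. In the simulation, changes were placed only in probes at or above the median level. Those of 0.5 in log2 units were recovered in 9%, those of 1 in 84% and those of 2 in 100%. Of the 111 calls made, 10 were false. The simulated noise was normal, with the spreads of the fit and no shared array effects, so these rates may differ in the real data. Not passing thus does not show that a gene is unchanged. The 3 arrays per group limit precision.

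Symbols came from the platform annotation (21615 probes with 1 symbol, 681 with several, 13931 with none); 21487 matched RefSeq by gene ID. All probes of a member were read. Other listed genes were read on their brightest probe; in each group of them the called genes, or else the gene with the smallest p, were named, and Ucp1 always. Other genes in the text were chosen after their values were seen. Members and lists were chosen with earlier results of these data known. No protein sequences were used here. Alternatives were an offset, other scalings, filters, variance models, the replicate number as a block and leaving out each array.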

Additional observations from a re-analysis of the deposited data

How the results depend on the processing

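Over 17 alternatives, Gbe1 and Gys1 stayed lower and past the threshold in 16, the exception being limma without the intensity trend; Ppp1r3c, tested in 15, did so in 12. Member probes called lower numbered 3, with 0 without the trend, 5 with array weights, 2 to 6 leaving out 1 array, 4 with the offset or robust eBayes, 4 of 7 tested among the brighter probes alone (with or without the trend) and 3 in the rest; 0 were called higher under any alternative. Other glycogen genes called lower numbered 3, with 0 without the trend, 6 among the brighter probes alone (5 there without the trend, a setting added after seeing the data), 5 with array weights and 2 to 7 leaving out 1 array. Those called higher numbered 1, with 0 without the trend and 0 to 1 leaving out 1 array. The share of all probes called lower moved too, from 2.03% to 0% without the trend, 3.83% with array weights, 9.5% among the brighter probes (9.11% without the trend) and 0.258% to 4.46% leaving out 1 array. The causes were not tested.

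The labels do not pair same-numbered arrays, whose deviations from the group means correlated at -0.24, -0.01 and 0.10. With the replicate block, 3 member probes were called lower; it changed no call of a member or other gene. An offset of 0.171 before log2 moved Ppp1r3c from -1.39 to -1.17 and brought Pygm past the threshold (-1.43, adjusted p = 0.0445).

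Directions that turned were all of probes that did not pass. Leaving out 1 array gave ranges across 0 for the dim Pygl probe (-0.206 to 2.15), Pgm2 (-1.072 to 0.518), Epm2a (-0.203 to 0.413), Ppp1r3g (-0.887 to 1.155), Nhlrc1 (-0.645 to 0.219) and Pgm5 (-0.561 to 0.591). Pgm5 turned with the offset (0.005) and array weights (0.139), Epm2a with quantile normalization (-0.009), Ppp1r3d with quantile normalization (0.054) and cyclic loess (0.044), and Ppp1ca with cyclic loess (0.039). For the dim probes of Pgm2 and Pygl, the 95% intervals are too wide to show a change of the size seen in Gys1.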
